A study of Triticum aestivum with 8 samples.

Results

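The transcripts described here are those whose probes were bright on every array and whose level relative to the rest of the array differed little between dry wheat embryos and embryos imbibed for 16 or 24 h. The level of a probe is its log2 processed signal minus the 75th percentile of the non-control probes of the same array, so a level of 3 is 8 times that percentile. A probe was included when its level was at least 3 on all 8 arrays and the highest and lowest of the 3 group means differed by less than 0.5, which is 1.41-fold. Of 43603 probes, 319 met the rule, or 0.732%. They are 24.0% of the 1327 probes with a level of at least 3 on every array, and the other 1008 of those differed by more between groups. The probes were thus chosen by their levels on the 75th-percentile scale, and no test is given of their height or their flatness. Brightness also depends on how well a probe hybridises, so "abundant" describes signal and not a number of molecules.

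A mature cereal embryo dries with a store of messenger RNA made during grain filling. Water uptake restarts metabolism, stored transcripts of the maturation programme are broken down, and new transcription supplies the growing root and shoot. A transcript can hold a steady place among the others while the whole population grows, so the reference against which it is measured decides whether it appears constant. Control transcripts added to the RNA before labelling, here the E1A_r60 spike-ins, give a reference that does not come from the embryo.

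Bread wheat embryos (cultivar Norin61) were measured in dry seed (2 arrays) and after imbibition in the dark at 25 °C for 16 h (3 arrays) and 24 h (3 arrays), on arrays with a single dye, Cy3. Seeds whose radicle, the embryonic root, was shorter than 3 mm at 16 h or 7 mm at 24 h had been excluded, so the imbibed groups hold germinated grains alone. Each array carried RNA pooled from 7 embryos, the 21 seeds of a stage having been divided into 3, and 200 ng of total RNA entered each labelling. The growth protocol, the same for all 8 samples, has seeds soaked in 1% hypochlorous acid and rinsed before they were kept moist. The hours follow the sample titles, because the description fields give 8 and 16 h for the imbibed groups. The labels do not say that pools were grown apart, so p-values here measure the spread between pools alone, which may be technical. Across tested probes the lowest correlation between arrays of a group was 0.985. This value also reflects how widely probes differ in level, so it does not measure the spread of a probe between pools. Across probes, 25322 and 26165 were well above background in dry seed, and imbibed arrays had 28889 to 32007. All 319 abundant flat probes were well above background on all 8 arrays, and 0 were saturated. Their linear signals ran from 1990 to 80222 before imbibition and from 9674 to 520024 after it.

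The files name a probe by the sequence it was designed on and give no gene description, and 0 of these names matched the 155467 genes of the reference table used. The probes are therefore called by probe ID and sequence name, without a gene or a function. The intended grouping by product (ribosomal proteins, translation factors, histones and others) and the check of the embryo label against marker genes could not be carried out. Of the 319, 190 carried a TA assembly number, 10 a TC number, 116 a sequence accession and 3 a probe ID alone. TA numbers made up 59.6% of the abundant flat probes, 54.9% of the other abundant probes and 40.4% of all probes on the array.

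The mean level over 8 arrays ran from 3.12 to 8.11 with a median of 4.29, and the middle of the distribution lay between 3.70 and 5.31 (quartiles). The difference between highest and lowest group mean ran from 0.0040 to 0.499 with a median of 0.344. Only 10 probes differed by less than 0.1 and 86 by less than 0.25, while 118 lay between 0.4 and 0.5. Most of the set thus lies nearer to the limit than to 0. The pooled standard deviation between replicates had a median of 0.116, against 0.134 in the other abundant probes, which were not chosen for small differences. Over the 8 single arrays rather than the group means, the median spread was 0.536, and 119 probes stayed within 0.5 and 313 within 1.

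Where a limit cuts a continuous distribution, the probes beside it are alike. Just inside the limit of 0.5 were A_99_P272431, A_99_P235911, A_99_P249666, A_99_P197366 and A_99_P626196, with differences of 0.494, 0.496, 0.498, 0.498 and 0.499. Just outside were A_99_P238231, A_99_P458362, A_99_P429377, A_99_P222416 and A_99_P529097, at 0.5003, 0.501, 0.503, 0.504 and 0.505. At the floor of 3, the lowest array of A_99_P408002 was at 3.00 and that of the excluded A_99_P074770 at 2.996. The other members nearest to the floor were A_99_P264871, A_99_P259776, A_99_P225281 and A_99_P553227. The other excluded probes nearest to it were A_99_P217711, A_99_P138360, A_99_P249026 and A_99_P283196. Membership also depended on the processing, as 172 of the 319 met the same rule after quantile normalization and 189 after normexp background correction.

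The 10 probes with the highest mean level illustrate what a flat course looked like on single arrays. A_99_P587687 (sequence DR735425) stood at 8.24 and 7.92 before imbibition, at 8.13, 7.82 and 7.80 at 16 h, then at 8.56, 8.20 and 8.21 at 24 h. Its groups overlapped, since the lower dry-seed array fell inside the 16 h values and the higher one inside the 24 h values. Its fitted changes were -0.17 (SE 0.18) at 16 h and 0.24 (SE 0.18) at 24 h against dry seed. A_99_P630151, designed on the same sequence, stood at 7.97 and 7.66, then 7.76, 7.52 and 7.54, then 8.17, 7.85 and 8.01. A_99_P646021, also on DR735425, stood at 7.79 and 7.61, then 7.52, 7.27 and 7.24, then 7.94, 7.64 and 7.73. These 3 of the 4 probes named DR735425 had their lowest mean at 16 h and their highest at 24 h. The remaining probe is not in the set and is described further on.

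A_99_P592637 (CK206583) followed the same order, with 7.67 and 7.69 in dry seed, 7.70, 7.41 and 7.45 by 16 h and 8.13, 7.88 and 7.91 by 24 h. Its 24 h arrays all lay above the other 5. A_99_P444692 (TA59811_4565) stood at 7.86 and 7.79, then 7.53, 7.40 and 7.37, then 7.93, 7.71 and 7.79. Its dip at 16 h was larger than the spread, because all 16 h arrays lay below all others. A_99_P447992 (TA56183_4565) dipped less, with 7.71 and 7.53, then 7.45, 7.26 and 7.34, then 7.64, 7.44 and 7.40. A_99_P454207 (TA61209_4565) varied least of the 10 over the 8 arrays, with 7.42 and 7.46, then 7.44, 7.30 and 7.28, then 7.72, 7.48 and 7.55.

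The remaining 3 of the 10 did not share the dip. A_99_P608712 (CK208553) stood at 7.53 and 7.10 in dry seed, 7.57, 7.42 and 7.70 by 16 h and 7.89, 7.72 and 7.73 by 24 h. Its means were 7.31, 7.56 and 7.78, and the dry-seed arrays differed from each other by nearly as much as the groups did. A_99_P582597 (CK168082) stood at 7.81 and 7.56, then 7.74, 7.47 and 7.73, then 7.46, 7.11 and 7.05. It held through 16 h and was lower on all 24 h arrays. A_99_P220256 (AF005993) stood at 7.92 and 7.59, then 7.88, 7.43 and 7.69, then 7.54, 7.59 and 7.43, with overlapping groups.

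Group means that coincide do not require arrays that coincide. The smallest difference between group means belonged to A_99_P000476 (CK166971), whose arrays read 3.84 and 3.47 in dry seed, 3.89, 3.66 and 3.42 by 16 h and 3.45, 3.92 and 3.58 by 24 h. The 3 means were 3.66, 3.66 and 3.65, yet single arrays of every group were spread over more than 0.3. A_99_P013149 (CD872187) showed the same high and low arrays, with 4.18 and 3.85, then 4.25, 4.01 and 3.78, then 3.87, 4.28 and 3.87. A_99_P203686 (TA52134_4565) was closer, with 3.19 and 3.18, then 3.31, 3.20 and 3.05, then 3.09, 3.22 and 3.22. A_99_P451252 (DR740571) and A_99_P520827 (CD912527) complete the 5 smallest differences, at 0.041 and 0.046.

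Unlike 16 h arrays marked the 3 probes with the largest spread between replicates. A_99_P238786 (U55859) stood at 6.17 and 5.95 in dry seed, 6.87, 5.34 and 5.76 by 16 h and 6.04, 6.08 and 5.97 by 24 h. A_99_P000366, on the same sequence, stood at 6.44 and 6.28, then 6.72, 5.30 and 5.65, then 5.96, 5.87 and 5.97. A_99_P238761 (TA64099_4565) stood at 5.25 and 5.12, then 5.96, 4.48 and 4.61, then 5.08, 4.95 and 4.99. In all 3 the first 16 h replicate was the highest of the 8 arrays and the second the lowest, so their flat 16 h mean averages unlike pools. At the other end, A_99_P159162 (CK162258) varied least, with 4.47 and 4.44, then 4.36, 4.37 and 4.40, then 4.08, 4.02 and 4.07. Here all 24 h arrays lay below all others, with a change of -0.39 against dry seed. A_99_P530022 and A_99_P246361 were the next least variable, with pooled standard deviations of 0.042 and 0.044.

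The set as a whole moved little on this scale, with somewhat more probes lowest at 16 h than at either other stage. The median change was -0.07 from dry seed to 16 h, 0.07 from dry seed to 24 h and 0.11 from 16 to 24 h. Over all 30834 tested probes these medians were -0.06, 0.04 and -0.01. The mean was lowest at 16 h in 151 probes, in dry seed in 96 and at 24 h in 72, and it was highest at 24 h in 147. The order 16 h, dry seed, 24 h from low to high was the most frequent, with 90 probes. The order 24 h, dry seed, 16 h was the least frequent, with 30. The median deviation of the set from its own mean was 0.04 and -0.04 before imbibition, 0.03, -0.08 and -0.13 at 16 h, and 0.10, 0.06 and 0.04 at 24 h. The first 16 h replicate was thus not lower than dry seed, and the difference between time points was similar in size to that between replicates.

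A limma fit over all tested probes shows how many of these small differences were larger than replicate error. At a Benjamini-Hochberg adjusted p below 0.05, 78 of the 319 differed between 16 h and dry seed, where 75.7% of all tested probes were called. Of these 24 were higher, against 36.6% of all tested probes, and 54 lower, against 39%. Between 24 h and dry seed 66 differed, where 78.8% of all tested probes were called. Here 41 were higher, against 40.2% of all, and 25 lower, against 38.6%. Between 24 and 16 h 86 differed, where 51.9% of all tested probes were called. The 68 higher compare with 26.6% of all and the 18 lower with 25.4%. Nothing is read from the low counts, because the rule used the same contrasts. In all, 163 probes were called in at least 1 comparison and 156 in none. The same share over all tested probes is not given, so nothing is read from this split either. A probe in none of them is not shown to be constant. The 95% intervals of all 3 differences lay within 0.5 for 57 probes and within 1.0, which is 2-fold, for 315. These intervals are centred on differences that the rule had held within 0.5. The counts are therefore a description and no test of constancy. The counts leaned on single arrays. With either dry-seed array left out, the call count fell to 31 or 32 at 16 h and to 32 or 29 at 24 h. The share of all tested probes called was then 68.9% or 68.5% at 16 h and 72.9% or 72.8% at 24 h. Leaving out 16 h replicate 2 or 3 gave 41 or 46 calls at 16 h against dry seed and 32 or 29 between 24 and 16 h. Leaving out 24 h replicate 1 or 3 gave 37 or 38 calls at 24 h against dry seed and 29 or 35 between 24 and 16 h. Here the shares over all tested probes were 75.1% or 74.6%, and 39.5% or 39.1%. Part of each drop was thus a loss of calls across all probes.

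Relative to the spike-ins the signal of the same probes was far from constant. The same mass of total RNA entered each labelling, so a level relative to the spike-ins does not measure transcripts per embryo. Whether RNA quality or labelling yield differed between stages was not tested. After each array was shifted so that 8 E1A_r60 probes had a common level, the median log2 signal of the 319 probes was 11.96 and 11.70 before imbibition, 14.89, 14.55 and 14.49 at 16 h, and 15.12, 15.58 and 15.36 at 24 h. The dry-seed arrays stood far below all imbibed arrays. All 24 h values exceeded all 16 h values. Against dry seed the median rise was 2.81 at 16 h, or 7.01-fold, with single probes between 5.24-fold and 10.4-fold. At 24 h it was 3.56, or 11.8-fold, with single probes between 7.97-fold and 15.8-fold. From 16 to 24 h it was 0.73, or 1.65-fold.

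**Figure D1:**
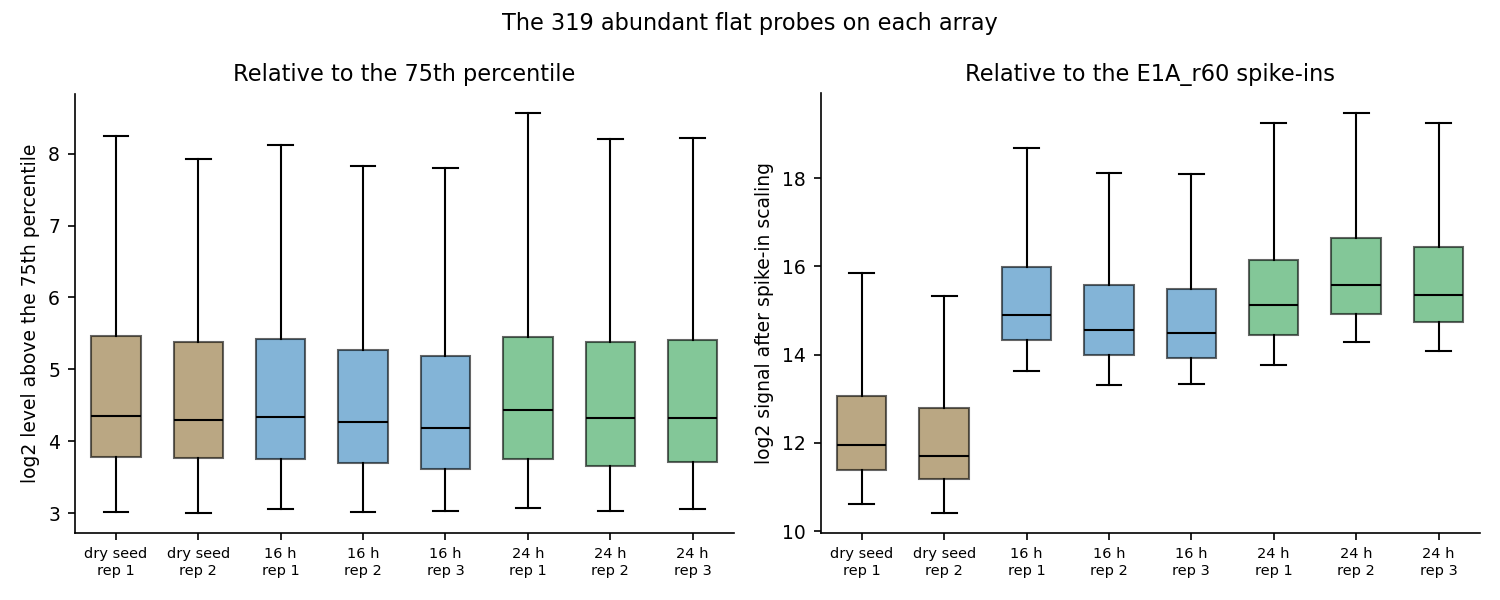
Log2 level of the 319 abundant flat probes on each of the 8 arrays, relative to the array's 75th percentile (left) and after scaling to the E1A_r60 spike-ins (right). Boxes give quartiles and median, and whiskers the lowest and highest probe. On the left the medians lie between 4.19 and 4.43, and on the right they lie at 11.70 and 11.96 in dry seed against 14.49 to 15.58 after imbibition.

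These rises follow by arithmetic from a flat level and a shift of the whole array, and they were shared with most of the transcriptome. Over every tested probe, the median rise on the spike-in scale was 2.82 at 16 h and 3.54 at 24 h, and that of the other abundant probes was 2.66 and 3.57. At 2-fold or more and a limma adjusted p below 0.05, 319 of 319 abundant flat probes were higher at 16 h, where 86.8% of all tested probes were. At 24 h it was again 319, where 90.8% of all tested probes were, and from 16 to 24 h it was 48, where 29.2% were. The shift itself is a single value per array. The rule used its 75th percentile as the reference for levels, but not its spike-in offset. The 75th percentile of the wheat probes minus the spike-in offset was 7.60 and 7.41 in dry seed, 10.56, 10.29 and 10.30 by 16 h and 10.69, 11.26 and 11.04 by 24 h. Imbibed arrays were higher by 3.19, or 9.11-fold, and did not overlap with dry seed, with 2.92 on slide 1 and 3.46 on slide 2 (p = 0.0357 by an exact two-sided permutation test over arrays, the lowest value possible with 28 splits). Between 24 and 16 h the difference was 0.61 (p = 0.1 by an exact two-sided permutation test over arrays, the lowest value possible with 20 splits).

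Single probes illustrate the course on the spike-in scale. Their closeness to the shift of the array is built in, since the rule held group means within 0.5. A_99_P587687 read 15.84 and 15.33 in dry seed on the spike-in scale, 18.69, 18.12 and 18.10 by 16 h, and 19.25, 19.46 and 19.25 at 24 h, a change of 6.57-fold and then 13.3-fold. A_99_P000476, with the smallest difference between group means, rose 7.37-fold and 11.2-fold. A_99_P582597, which declined at 24 h relative to the array, was still 8.07-fold above dry seed relative to the spike-ins. The smallest rise at 24 h was that of A_99_P626196 and the largest that of A_99_P212526 (AK332364), at 2.99 and 3.99 on the log2 scale.

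Part of the spike-in contrast lay in the spike-ins. Their offset was 0.45 and 0.55 in dry seed, 0.02, 0.23 and -0.10 by 16 h and -0.26, -0.50 and -0.36 by 24 h, so the added transcripts read lower where the wheat probes read higher. From dry seed to 16 h the 8 probes used changed by -0.22 (E1A_r60_1) to -0.49 (E1A_r60_a135), and to 24 h by -0.48 to -0.93. The brightest spike-in probe, E1A_r60_1, changed least. The others of the 8 stayed within -0.39 to -0.49 at 16 h. The remaining 2 of 10 E1A_r60 probes were not well above background on all arrays and were left out. The labels do not give the amount of spike-in added to each pool, and its part in these values was not tested. Each group lay on both slides, with 4 arrays a slide. Within slide 1 the median rise of the abundant flat probes was 2.77 (log2) at 16 h and 3.16 at 24 h, and within slide 2 it was 2.79 and 3.81. The step from 16 to 24 h was 0.38 on slide 1 and 1.03 on slide 2, so its size differed between slides by more than 1.5 times. On their own scale, 258 of the 319 stayed within 0.5 on slide 1 and 251 on slide 2, and 202 did so on both.

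The name "constant share" does not hold when share means share of the summed signal. The 319 probes held 8.26% and 8.09% of the summed wheat signal on the dry-seed arrays. They held 11.9%, 11.2% and 11.2% at 16 h and 11.7%, 11.6% and 11.4% at 24 h. The groups before and after imbibition did not overlap, and the imbibed groups did not separate from each other. The difference in reference is measurable without the set. The summed signal minus the 75th percentile was 17.23 and 17.16 (log2) in dry seed, 16.69, 16.60 and 16.59 by 16 h and 16.84, 16.74 and 16.76 by 24 h. It was lower after imbibition by 0.49, or 1.41-fold (p = 0.0357 by an exact two-sided permutation test over arrays, the lowest value possible with 28 splits). This comparison was added after the data were seen. The difference was -0.52 on slide 1 and -0.46 on slide 2. Without the 10 brightest probes of each array it was -0.45, and without the 100 brightest it was -0.34.

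**Figure D2:**
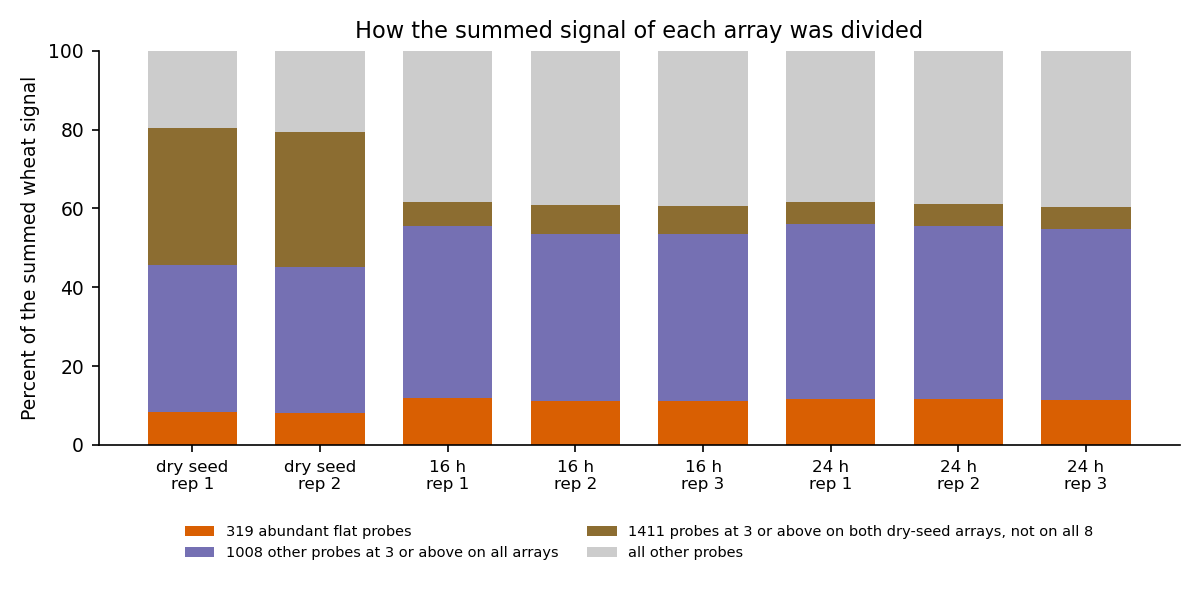
Percent of the summed wheat signal of each array held by the 319 abundant flat probes, by the 1008 other probes with a level of at least 3 on all arrays, by 1411 probes at that level on both dry-seed arrays but not on all 8, and by all others. Bars start at 0 and add up to the whole signal. The abundant flat probes hold 8.09% to 8.26% in dry seed and 11.2% to 11.9% after imbibition.

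The signal was divided differently before and after imbibition. The 1411 probes with a level of at least 3 on both dry-seed arrays but not on all 8 held 34.7% and 34.2% of the signal in dry seed. At 16 h they held 6.14%, 7.27% and 7.02%, and at 24 h 5.61%, 5.40% and 5.64%. These probes were chosen for a level high in dry seed and lower elsewhere, so their decline is built in, while its size is not. The 40865 probes below 3 on at least 1 dry-seed array went from 19.6% and 20.6% to between 38.3% and 39.5%. They can include probes that were abundant after imbibition. Since they were chosen as lower in dry seed, the direction of their rise is likewise in part built in. The other 1008 abundant probes went from 37.4% and 37.1% to between 42.3% and 44.4%, a smaller relative gain than that of the flat set.

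As shares, the abundant flat probes gained nearly without exception. At 16 h the median change was 0.49 on the log2 scale, or 1.41-fold, and 0 of the 319 had a lower mean share. That 0 was fixed in advance. The mean summed signal relative to the 75th percentile went from 17.19 in dry seed to 16.63 at 16 h. This shift was larger than the 0.5 by which the rule let a probe fall. At 24 h it was 0.48, and 14 had a lower mean share, with the lowest at -0.08. From 16 to 24 h the median was -0.04. In the limma fit on shares, 219 were higher at 16 h, where 50.2% of all tested probes were, and 218 at 24 h, where 49.6% were. The count of lower calls was 0 at both times, where 25.6% and 29.2% of all tested probes were lower. Between 24 and 16 h 17 were higher, where 21.2% were, and 43 lower, where 32.5% were. These counts repeat the rule's contrasts on a shifted scale, so the absence of lower calls at 16 h was fixed and little room was left for them at 24 h. For A_99_P587687 the share was 0.197% and 0.166% before imbibition, 0.264%, 0.228% and 0.226% by 16 h and 0.323%, 0.269% and 0.267% by 24 h, with every imbibed array above both dry-seed arrays. A_99_P444692, which dipped relative to the 75th percentile, held 0.151% and 0.152%, then 0.174%, 0.170% and 0.167%, then 0.209%, 0.191% and 0.200%, and so did not dip as a share. Had the rule been set on shares with the same floor, 314 probes would have met it, 109 of the 319 and 205 others.

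**Figure D3:**
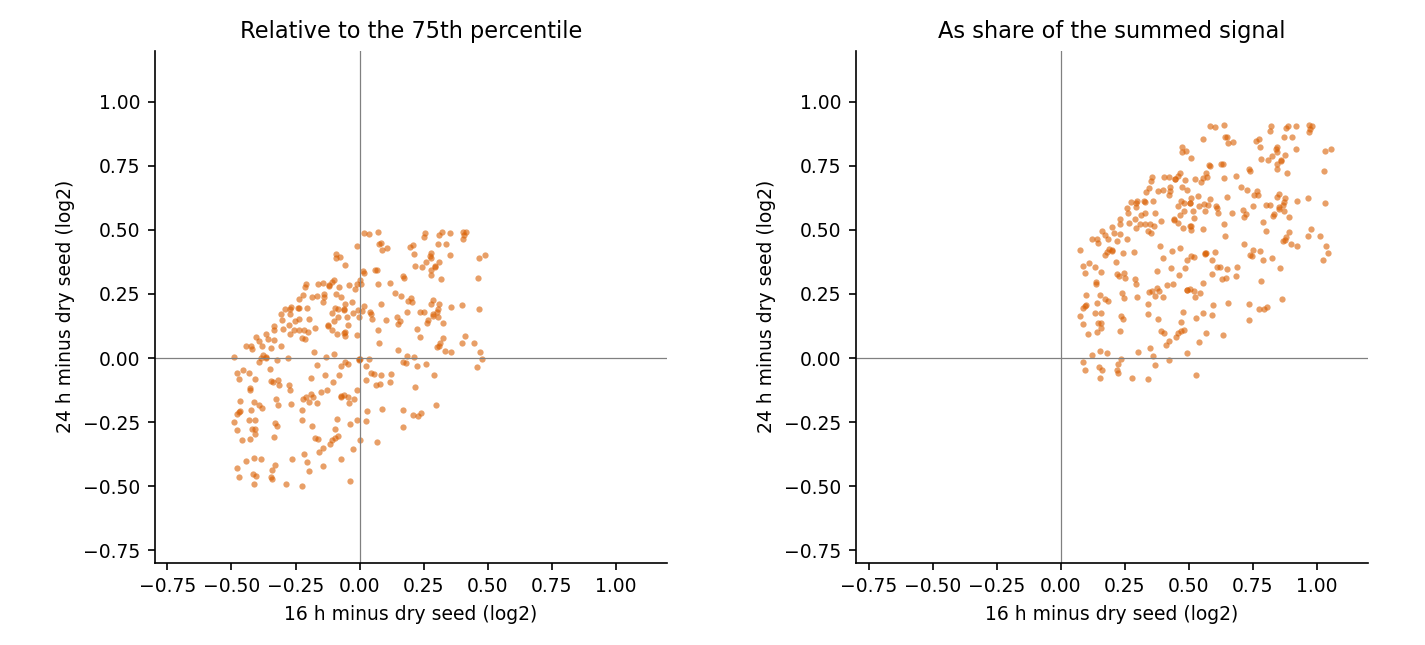
Change of each of the 319 abundant flat probes from dry seed to 16 h (horizontal axis, log2) and to 24 h (vertical axis, log2), relative to the array's 75th percentile (left) and as share of the summed signal (right). Each point is a probe. On the left the rule confines points to within 0.5 of 0. On the right all lie above 0 at 16 h, which the rule and the shift of the reference fixed, and 14 lie below 0 at 24 h.

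Flat levels were found in every class of mean level from -4 to 9, and somewhat more often among brighter probes. Probes outside these classes were not counted. Of the probes well above background on all arrays, the share with group means within 0.5 was 11.2% at mean levels of -4 to -2 and 12.7% at 0 to 1. It was 14.6% at 3 to 4, 17.1% at 4 to 5, 16.7% at 5 to 6 and 21.5% at 6 to 9. The median difference between highest and lowest mean was 1.32 in the dimmest of these classes and 0.83 in the brightest. This is a description across probes, which share arrays and are not replicates. The cause was not tested.

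**Figure D4:**
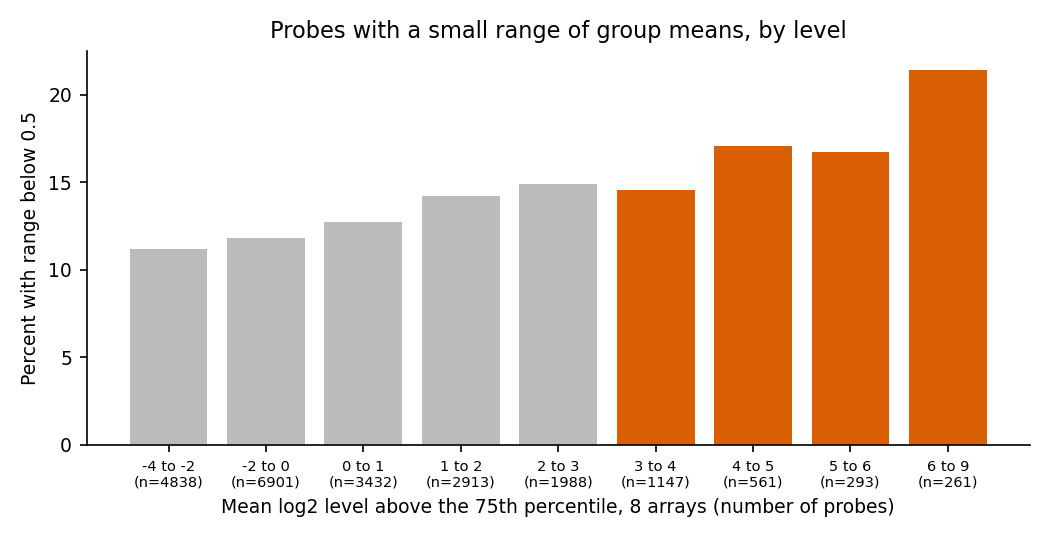
Percent of probes whose group means lay within 0.5, among probes well above background on all 8 arrays, in classes of mean log2 level above the 75th percentile. Classes run from -4 to 9, and probes outside them are not shown. The number of probes in each class is given under its bar, and orange marks levels of at least 3. The percentage runs from 11.2% in the dimmest class to 21.5% in the brightest.

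Several probes often carry the same sequence name, which shows whether a flat reading was shared by the sequence. The 319 probes carried 291 names, of which 203 had a single probe on the array and 88 had more. In 15 of the 88 every probe was in the set. AK335781, TA65838_4565 and DR735425 had 3 probes in it. For AK335781 the 3 probes changed by 0.29, 0.41 and 0.49 between lowest and highest mean, all in the order dry seed, 16 h, 24 h. BQ752675, a name picked after its values were seen, had 4 probes, 2 of them in the set. The others were below the floor of 3 and were also flat, with differences of 0.15 and 0.16.

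The other 73 names had 144 further probes outside the set. Because probes that met the rule are removed from this count, it leans towards change. Of the 144, 56 had a level of at least 3 on all arrays and 23 had group means within 0.5. For 62, under 40 names, the means differed by at least 1, which is 2-fold. Among the 139 well above background on all arrays, 41.0% differed that much, against 62.9% of all probes so measured, and 16.5% were within 0.5, against 12.4%. In the limma fit, 44 of 140 tested were changed at least 2-fold at an adjusted p below 0.05 at 16 h, where 52.1% of all tested probes were called. These were 31 higher, against 25.7% of all, and 13 lower, against 26.4%. At 24 h against dry seed 57 were called, where 56.3% of all tested probes were. Here 43 were higher, against 29.3%, and 14 lower, against 27%. From 16 to 24 h it was 2, where 18.4% of all tested probes were called. Both were higher, against 11.6% of all, and 0 were lower, against 6.78%.

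Names were ranked by how far the 24 h change of another probe, well above background on all arrays, lay from that of the members. By this measure the widest disagreement was under the name M90077. Its member, A_99_P605658, stood at 6.94 and 6.91 in dry seed, 7.37, 7.11 and 7.24 by 16 h and 7.45, 7.41 and 7.35 by 24 h. A_99_P625132 stood at 2.75 and 2.62, then 5.81, 5.54 and 5.84, then 6.16, 6.05 and 6.04. It was 10.5-fold higher at 24 h than in dry seed (log2 change 3.40, SE 0.13, limma adjusted p = 4.76e-07). A_99_P601812, A_99_P625137 and A_99_P615852 rose 9.16-fold, 8.92-fold and 5.59-fold. A_99_P001426 rose 1.85-fold, from 6.06 and 5.97 to 6.88, 6.96 and 6.87. The 6 probes of this name thus ran from nearly flat to a rise of more than 10 times.

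The 4 names that followed in this ranking also had a probe that rose. Under AB158409 the member A_99_P533222 stood at 6.48 and 6.23, then 6.82, 6.64 and 6.56, then 6.77, 6.74 and 6.48. A_99_P156982 of the same name went from 1.73 and 1.25 to 4.71, 4.67 and 4.45 at 24 h, an 8.68-fold rise (limma adjusted p = 2.31e-06). Under AK332364 the member A_99_P212526 itself rose by 0.49 (log2) by 24 h. A_99_P440577 of that name rose 8.10-fold by 24 h, from -1.17 and -1.13 to 1.81, 1.82 and 1.98. Under AF005993 the members A_99_P220256 and A_99_P157297 were flat. A_99_P619697 fell by 0.59 on the log2 scale, and A_99_P620407 rose 3.94-fold, from 2.56 and 2.26 to 4.32, 4.53 and 4.31. Under DR735425 the 3 members were flat and A_99_P611988 rose 4.91-fold, from 1.91 and 1.85 to 4.44, 4.01 and 4.09. In each of these names the probe that rose did so on all imbibed arrays. The ranking leaves out probes not well above background on every array, among them A_99_P212186 (TA54900_4565), with a fitted change of 3.78 at 24 h but signal not well above background on either dry-seed array, and A_99_P580897 (DR735458), not well above background on any of the 8.

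Falls under flat names were also seen, in names picked after their values were seen. Under U73172 the member A_99_P522962 stood at 3.65 and 3.13 in dry seed, 3.22, 3.09 and 3.11 by 16 h and 3.74, 3.31 and 3.56 by 24 h. A_99_P141268 fell 4.22-fold by 16 h, from 5.30 and 5.07 to 3.29, 3.18 and 2.85 (log2 change -2.08, SE 0.18, limma adjusted p = 2.48e-05). A_99_P438417 fell 3.65-fold and A_99_P204541 fell 2.98-fold by 16 h. A_99_P197706 fell 1.83-fold. By 24 h these probes had come back in part. In the same order, from A_99_P141268 on, they stood 2.89-fold, 2.49-fold, 2.18-fold and 1.27-fold below dry seed. The last of these was not called (limma adjusted p = 0.0743). Wheat carries 3 related genomes, and a sequence name does not say which copies or which part of a transcript its probes read. The probe sequences were not used here, so whether probes of a name read the same transcript was not tested.

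**Figure D5:**
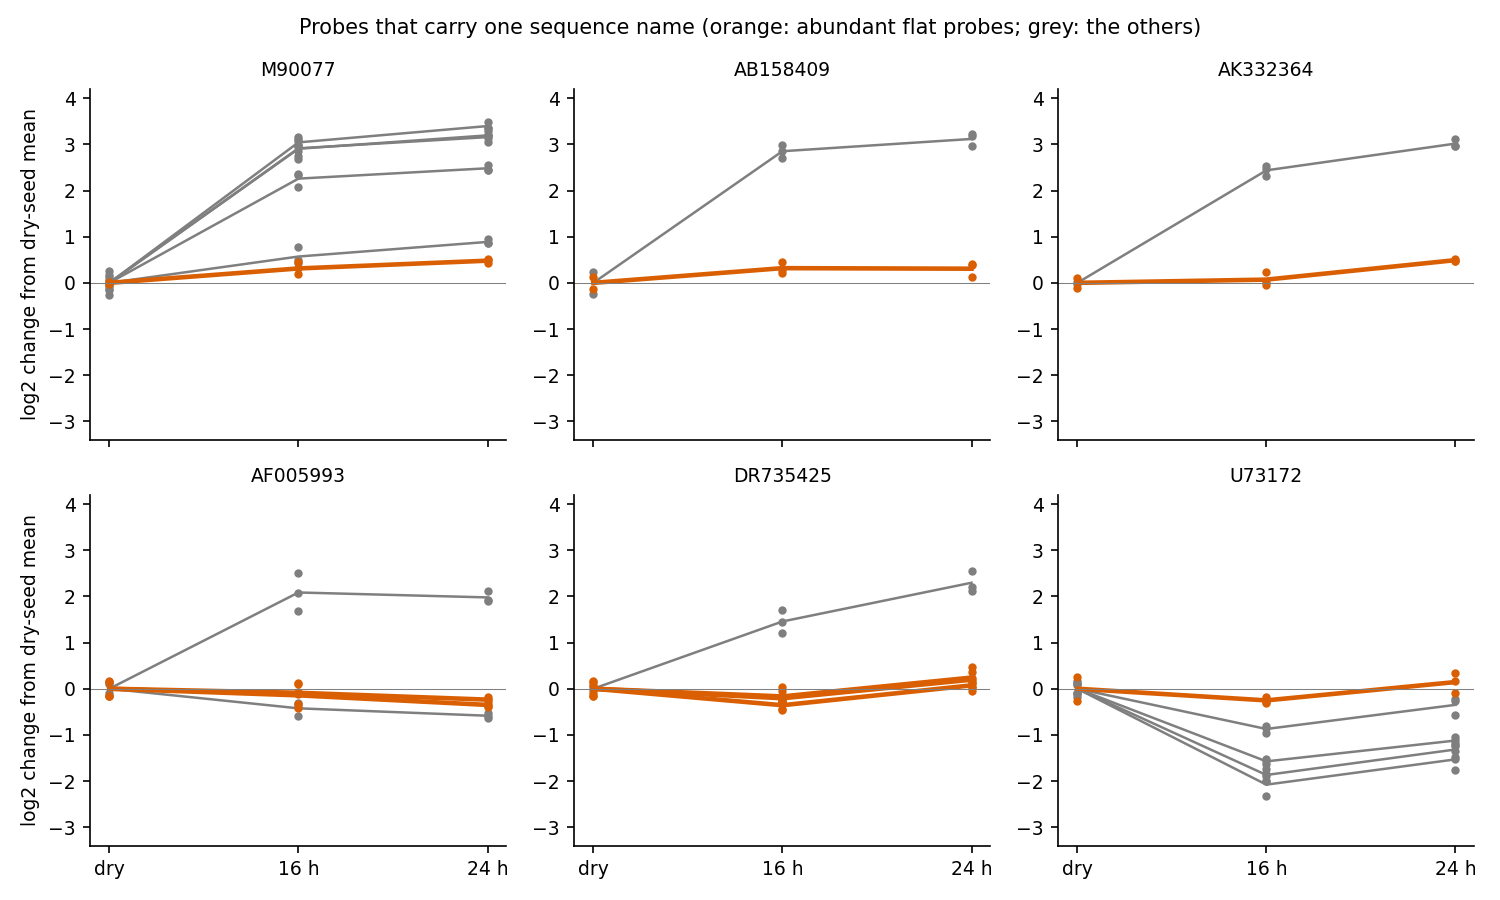
Level of each probe of 6 sequence names as the log2 change from its own dry-seed mean, at dry seed, 16 h and 24 h. Orange lines are probes of the abundant flat set, grey lines the others well above background on all arrays, and points are single arrays. Under M90077, AB158409, AK332364, AF005993 and DR735425 at least 1 grey probe rises above its orange neighbours. Under U73172 the grey probes fall by 16 h and come back in part by 24 h.

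Among abundant probes alone, 161 names had at least 2 probes with a level of 3 or more on all arrays. In 23 of them every such probe was in the flat set, in 29 some were, and in 109 none was. These counts come from the values that chose the set and are given as a description.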

How the data were processed

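Each of the 8 scanner files was made with Agilent Feature Extraction 10.7.3.1, per the file headers, which subtracted background within the array and scaled nothing between arrays. The deposited processed signal of each spot, a linear intensity, was used, and the deposited flags give whether a spot was well above background, saturated or an outlier. A deposited log2 table matched the scanner values once these were scaled to the 75th percentile of each array and centred by probe on the median, which settles its scale, centring and direction. Column medians of that table ran 0.47 and 0.50 for dry seed, -0.05, 0.00 and -0.04 for 16 h, then -0.07, 0.00 and -0.06 for 24 h. The 24 h columns of replicates 2 and 3 matched each other's scanner file. The scanner files were used as assigned.

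Here, log2 signals were averaged over the spots of a probe and scaled by the 75th percentile over non-control probes. Testing was limited to the 30834 probes that were well above background (at 50% or more of their spots) throughout at least 1 group. limma 3.58.1 in R 4.3.3 (lmFit, eBayes, all 8 arrays, a mean per group) gave changes, standard errors and p-values, adjusted by Benjamini-Hochberg over all tested probes within a comparison. The fit was tested on simulated data. The spike-in offset of an array is the median deviation of 8 E1A_r60 probes from their means over arrays. Shares are of the summed signal of the non-control probes. Single values per array were compared by exact permutation tests. The number of arrays limits the precision.

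The members and all lists were chosen with earlier results of these data known. The probes named are the 10 with the highest mean level, the 5 with the smallest difference between means, the 5 on either side of each limit, the 3 with the largest and the 3 with the smallest spread, and the 5 names whose other probes, among those well above background on all arrays, differed most from the members in the change from dry seed to 24 h. Gene lists by product word had no members, since no name could be matched. The alternatives were other scalings, normexp background correction (offset 50, on median intensities, as the files hold no means), the deposited log2 table, other filters, limits and thresholds, slide and replicate number as terms, and leaving out each array. Added after seeing the data were the 75th percentile over spots and shares of the summed signal. Also added then was the test of the summed signal relative to the 75th percentile. Its settings without the brightest probes or single arrays, and its split by slide, were added too.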

Additional observations from a re-analysis of the deposited data

How the results depend on the processing

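The number of abundant flat probes was 319 and, leaving out each array in turn, 277 to 356. A limit of 0.4 gave 201. Other settings gave 229 to 450, but the identity of the probes depended more on the scaling than the number did: quantile normalization gave 379, sharing 172 with the 319, normexp background correction 283, sharing 189, and scaling to the array median 351, sharing 235. The median rise relative to the spike-ins was 2.68 to 2.95 at 16 h, 3.43 to 3.70 at 24 h and 0.60 to 0.86 from 16 to 24 h when single arrays were left out. Within slides it was 3.16 and 3.81 at 24 h, and 0.38 and 1.03 from 16 to 24 h.

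Counts of these probes called by limma moved most, and the cause was not tested. For 16 h against dry seed the 78 became 48 with only the groups compared, 177 with quantile normalization, 19 at an adjusted p below 0.01, and 31 to 91 when single arrays were left out. The share of all tested probes called was 73.2%, 75.9%, 65.0%, and 68.5% to 76.1% in the same order, against 75.7% in the main fit. For 24 h against dry seed the 66 became 157 with quantile normalization, 154 with normexp, 14 at the stricter threshold, and 29 to 80 when single arrays were left out. Over all tested probes the share was 80.1%, 83.1%, 69.2%, and 72.8% to 80.0%, against 78.8% in the main fit. For 24 against 16 h the 86 became 51 with no filter on dim probes, 10 at the stricter threshold, and 29 to 106 when single arrays were left out. The share over all fitted probes was 31.8%, 31.5%, and 39.1% to 54.9%, against 51.9% in the main fit. With the replicate number as a block, the calls at 16 h against dry seed numbered 46, where 73.2% of all tested probes were called. Deviations of same-numbered arrays had correlations of -0.04 to 0.12, and those of different-numbered arrays -0.16 to 0.13. With groups of 2 or 3 arrays, these values cannot show whether the numbers pair the pools. The block kept the other counts of calls within 1.5 times.

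The 75th percentile relative to the spike-ins was higher after imbibition in every setting, by 3.07 to 3.28 when single arrays were left out. Without dry-seed replicate 1 or 2 it was 3.28 or 3.09 (exact permutation test, p = 0.143, the smallest 7 splits allow). Within slides it was 2.92 and 3.46 (exact permutation test, p = 0.25, the smallest 4 splits allow). The summed signal relative to the 75th percentile differed by -0.53 to -0.45 when single arrays were left out (-0.45 without dry-seed replicate 1 and -0.53 without replicate 2, exact permutation test, p = 0.143), and by -0.52 and -0.46 within slides (exact permutation test, p = 0.25). The count of other probes with means differing by at least 1 was 62, and 60 to 64 when single arrays were left out. With 2 dry-seed arrays, detection and intervals rest on few pools.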
